A study of Mus musculus with 9 samples.

Results

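The genes described here encode hyaluronan synthases, a hyaluronan receptor and matrix proteoglycans. The 10 genes, Has1, Has2, Cd44, Vcan, Dcn, Bgn, Lum, Fmod, Hspg2 and Prg4, were taken by name, whatever their values, from the 55487 genes of the count table. All 10 had counts, and 9 of them were among the 14851 genes with enough counts to be tested. Has2 was not. Gastrocnemius, the large calf muscle, was profiled by sequencing of polyadenylated RNA in 9 wild-type C57BL/6 mice (C57BL/6J in the study's text), labeled male. The 4 Control mice moved freely in their cages. The 2 Unloading mice had spent 10 days with the hindlimbs suspended, and the 3 Reloading mice had been suspended in the same way and then walked freely for 1 day, so the Reloading group carried both treatments. The ages of the mice are not given in the labels, and the study's methods describe females for this procedure. The comparisons ask how the transcripts of these matrix genes stood after disuse and at the first day of renewed load.

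Hyaluronan is a long sugar chain with no protein core, made at the cell surface by the hyaluronan synthases and held there by receptors such as CD44. Proteoglycans are proteins that carry sulfated sugar chains. Versican (Vcan) binds hyaluronan in loose matrix, perlecan (Hspg2) sits in basement membranes around muscle fibers and vessels, and the small leucine-rich proteoglycans decorin (Dcn), biglycan (Bgn), lumican (Lum) and fibromodulin (Fmod) bind collagen fibrils in the connective tissue sheaths of muscle. Lubricin (Prg4) is a mucin-like proteoglycan best known for lubricating joint and tendon surfaces.

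In GRCm38, the build of the count table, Has1 is at chr17:17843323-17855205, Has2 at chr15:56665627-56694539, Cd44 at chr2:102811141-102901665, Vcan at chr13:89655312-89742509 and Prg4 at chr1:150449412-150466165, all on the minus strand. On the plus strand are Dcn at chr10:97479609-97518143, Lum at chr10:97565128-97572703, Bgn at chrX:73483602-73495933, Fmod at chr1:134037254-134048277 and Hspg2 at chr4:137468769-137570630. Dcn and Lum are thus neighbors on chromosome 10.

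RefSeq promoter windows of 300 bases (GRCm38.p6) were at hand for 6 of the 10 genes, Has1, Cd44, Vcan, Bgn, Fmod and Hspg2. The stretches from -200 to -40 relative to the RefSeq start are shown for the 3 of these with the largest rise from Unloading to Reloading. They come from chr17:17855229-17855388 (minus strand) for Has1, chr2:102901706-102901865 (minus strand) for Cd44 and chrX:73483401-73483560 (plus strand) for Bgn, and capitals mark motif matches.

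Has1: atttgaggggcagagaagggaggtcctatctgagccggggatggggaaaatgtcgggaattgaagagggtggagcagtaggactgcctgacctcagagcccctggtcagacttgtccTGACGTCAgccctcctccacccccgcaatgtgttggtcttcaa

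Cd44: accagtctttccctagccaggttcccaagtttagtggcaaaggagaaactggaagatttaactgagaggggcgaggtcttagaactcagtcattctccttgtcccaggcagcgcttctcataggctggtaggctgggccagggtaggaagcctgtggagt

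Bgn: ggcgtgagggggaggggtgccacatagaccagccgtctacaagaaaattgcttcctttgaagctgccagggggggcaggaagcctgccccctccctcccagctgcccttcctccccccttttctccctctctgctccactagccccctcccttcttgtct

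Each window was searched on both strands for TATAAA, the AP-1 motif TGANTCA, the cyclic AMP response element (CRE) core TGACGT, the STAT motif TTCNNNGAA and the NF-kB motif GGGANTTCC. Of all 32817 RefSeq windows, 13.6%, 7.81%, 7.51%, 8.29% and 1.68% held these letters. In the 6 windows the only matches were 2 CRE cores in Has1, which overlap on opposite strands and together read TGACGTCA. The full TGACGTCA, looked at only after this match was seen, was found in 1.79% of all windows. The matches describe letters in a reference sequence, and binding of a factor was not measured.

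The libraries held 9252443 to 19612101 counts of read pairs, so that 1 read pair was worth 0.0546 to 0.113 CPM (counts per 1000000, with library sizes adjusted by edgeR's TMM factors). Skin RNA was seen in Control 2 and Reloading 1, where Krt2, a keratin of the epidermis, had 1086 and 502 counts and at most 3 in any other library. Without these 2 libraries the proteoglycan and hyaluronan genes kept all 7 calls between Reloading and Unloading, 2 between Unloading and Control and 8 between Reloading and Control, and Prg4 was added to the first (log2 fold change 0.85, edgeR adjusted p = 0.0448). The muscle fiber markers summed to 96600 CPM or more in every library. Together the 10 genes took 0.0423 to 0.05% of all counts in the Control libraries, 0.0542 to 0.0571% in the Unloading libraries and 0.0739 to 0.0859% in the Reloading libraries.

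Most of these genes were higher after 1 day of reloading than after 10 days of unloading. Of the 9 tested, 6 rose (Has1, Cd44, Vcan, Bgn, Fmod and Hspg2), 1 fell (Dcn) and 2 were not called (Lum and Prg4) at an adjusted p under 0.05 in edgeR's quasi-likelihood test. Has1 passed the filter on low counts through its Reloading libraries alone. Of all tested genes, 37.5% were called in this comparison, 18.5% higher and 19% lower. In CPM the groups did not overlap for any of the 10 genes, 8 higher and 2 lower in Reloading, beside 60% of all tested genes, 31% higher and 29% lower. The median log2 fold change of the 9 genes was 0.81, beside 0.03 for all tested genes. After unloading alone, 2 of the 9 were higher than in Control (Dcn and Prg4) and 0 were lower, and the same counts were found at an unadjusted p under 0.05 and in DESeq2. Of all tested genes, edgeR called 9.9% in this comparison, 4.4% higher and 5.5% lower. Groups without overlap were found for 3 of the 10 genes (Cd44, Dcn and Prg4, all higher in Unloading) and 33% of all tested genes, 16.4% higher and 16.6% lower. The median log2 fold change was 0.05 for the 9 genes and -0.00377 for all tested genes. Between Reloading and Control, 8 of the 9 were higher (7 in DESeq2), 0 were lower in either tool and Dcn was not called, with medians of 0.86 for the 9 genes and 0.01 for all tested genes. Here 43.5% of all tested genes were called, 22.1% higher and 21.3% lower. Reloading and Control did not overlap for 6 of the 10 genes, all higher in Reloading, and for 46.9% of all tested genes, 24.2% higher and 22.7% lower. These comparisons share groups, so the values of each stand side by side and are not independent of one another.

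**Figure D1:**
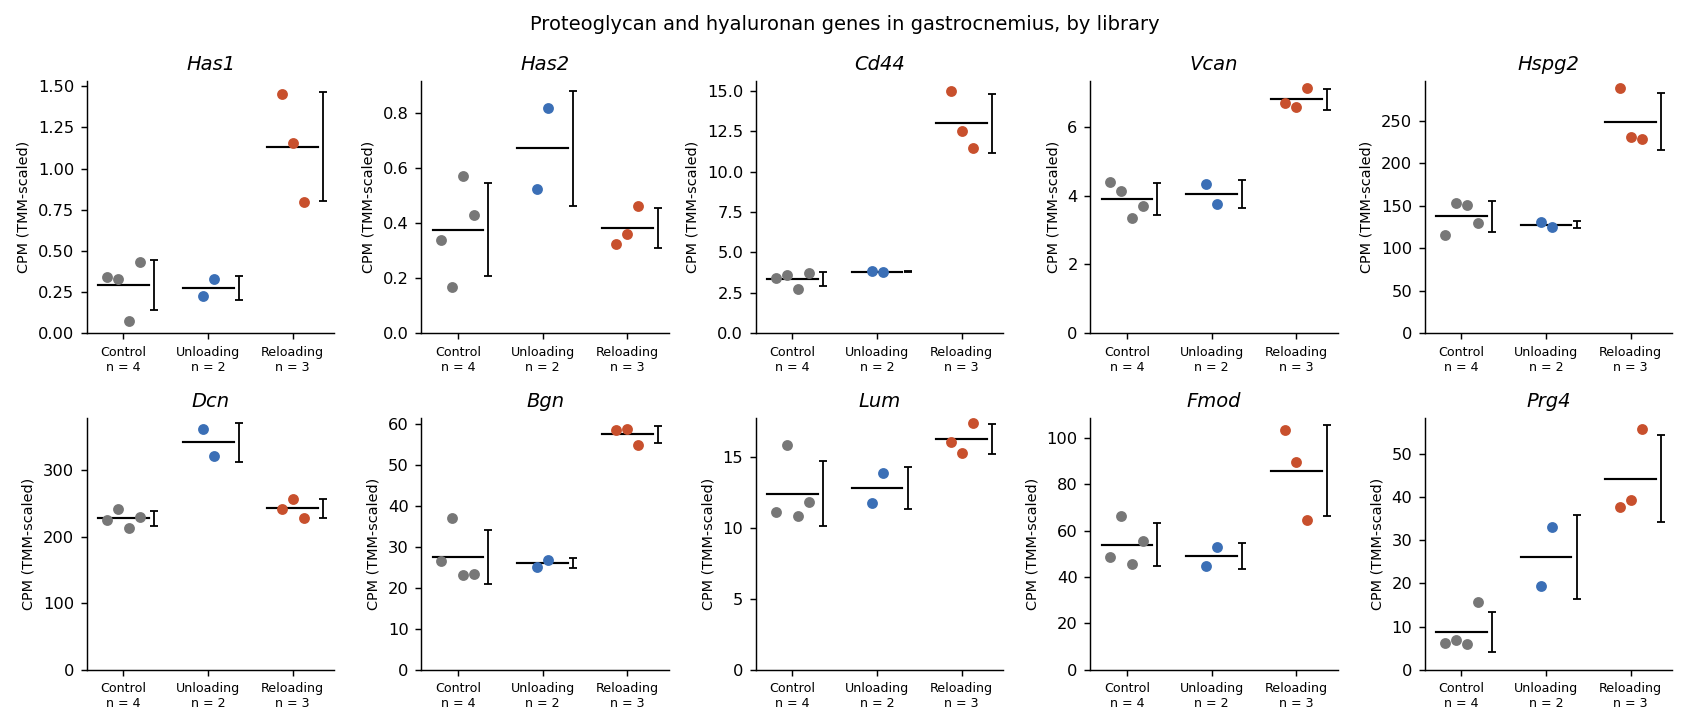
CPM of each of the 10 genes (y axis, TMM-scaled) in the 4 Control, 2 Unloading and 3 Reloading libraries, 1 point per library, with the mean as a horizontal line and the SD as a bar beside it. Dcn stands out with its highest values in the 2 Unloading libraries, while Has1, Cd44, Vcan, Bgn, Hspg2 and Prg4 have all 3 Reloading libraries above the other 6.

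Among the hyaluronan synthases, Has1 rose on reloading, Has2 stayed at a few counts and Has3 was not called. Has3, named here after its values were seen, stood at 2.009 ± 0.0929 CPM in Control (SD, n = 4), 2.09 ± 0.521 in Unloading (n = 2) and 2.645 ± 0.154 in Reloading (n = 3). Its log2 fold change was 0.31 ± 0.226 (SE) between Reloading and Unloading (edgeR adjusted p = 0.294) and 0.40 ± 0.198 between Reloading and Control (adjusted p = 0.118). Has1 stood at 0.338, 0.332, 0.0715 and 0.429 CPM in the Control libraries, 0.225 and 0.328 in the Unloading libraries and 1.45, 1.16 and 0.795 in the Reloading libraries. The 3 Reloading libraries lay above all 6 others. These values rest on 12 to 18 counts per Reloading library and 1 to 6 in the others. Has1 was therefore tested only because of the group in which it is high, and its calls carry that selection. From Unloading to Reloading Has1 rose 3.87-fold (log2 fold change 1.95 ± 0.518, SE; edgeR adjusted p = 0.00834), and it was 3.90-fold higher than in Control (1.96 ± 0.449, adjusted p = 0.00248). The rise over Unloading lost its call without Unloading 1 (log2 fold change 1.74), without Unloading 2 (2.26) and in DESeq2 (adjusted p = 0.0511). Its log2 fold changes were 1.74 to 2.26 over the 18 alternatives that tested Has1, and a stricter filter on low counts left it out. Between Unloading and Control the log2 fold change of Has1 was 0.01 ± 0.61 (adjusted p = 0.995). In whole muscle, a change in the number of cells of a type and a change in RNA per cell cannot be told apart, here or for any gene below.

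Has2 stood at 0.338, 0.166, 0.572 and 0.429 CPM in Control, 0.524 and 0.82 in Unloading and 0.322, 0.362 and 0.464 in Reloading. Unloading 2 was the highest library, Control 3 lay above Unloading 1, and the Reloading libraries lay within the Control range. With 2 to 15 counts per library Has2 was below the filter on low counts. With no filter, its log2 fold change was -0.845 between Reloading and Unloading (edgeR adjusted p = 0.387) and 0.858 between Unloading and Control (adjusted p = 0.511). Its exons overlap those of the antisense gene Has2os, which held 36 counts in all beside 56 for Has2. Since the counting ignored strand, reads from the shared stretch could not be assigned to either gene by strand.

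Cd44, the main cell surface receptor for hyaluronan, had the lowest adjusted p of the set in both comparisons of Reloading. It stood at 3.38, 3.57, 2.72 and 3.69 CPM in Control, 3.82 and 3.77 in Unloading and 14.99, 12.5 and 11.5 in Reloading. Every Reloading library lay well above all other libraries. Cd44 rose 3.41-fold from Unloading to Reloading (log2 fold change 1.77 ± 0.166, SE; edgeR adjusted p = 2.05e-06) and was 3.90-fold above Control (1.96 ± 0.141, adjusted p = 7.67e-08). The Unloading libraries both lay above the 4 Control libraries, by a log2 fold change of only 0.19 ± 0.181 (adjusted p = 0.546). Macrophages, which carry CD44, were represented by 12 marker genes, 11 of which rose from Unloading to Reloading, and their summed level was 94.12 to 114.7 CPM in Control, 97.53 to 98.84 in Unloading and 185.5 to 209.1 in Reloading. Their part in the Cd44 values was not tested.

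Versican and perlecan, the large proteoglycans of the set, rose by less. Vcan stood at 4.40, 4.15, 3.36 and 3.69 CPM in Control, 4.34 and 3.77 in Unloading and 6.69, 6.58 and 7.15 in Reloading. The Unloading values fell inside the Control range and the Reloading values above it. Vcan rose 1.69-fold from Unloading (log2 fold change 0.76 ± 0.162, SE; edgeR adjusted p = 0.002) and was 1.76-fold above Control (0.82 ± 0.139, adjusted p = 0.000234). Hspg2 stood at 115.7, 153.7, 150.3 and 129.9 CPM in Control, 130.5 and 124.7 in Unloading and 288.3, 231.1 and 228.2 in Reloading. Here too Unloading lay inside the Control range and Reloading above it. Hspg2 rose 1.95-fold from Unloading (log2 fold change 0.97 ± 0.124, SE; edgeR adjusted p = 3.16e-05) and was 1.81-fold above Control (0.86 ± 0.1, adjusted p = 7.88e-06). Between Unloading and Control neither was called, with log2 fold changes of 0.06 ± 0.164 for Vcan (adjusted p = 0.853) and -0.11 ± 0.116 for Hspg2 (adjusted p = 0.598). Endothelial cells lie on a perlecan-rich basement membrane, and 7 of 8 endothelial markers rose from Unloading to Reloading, with summed levels of 194.2 to 215.2 CPM in Control, 185.1 to 190.1 in Unloading and 315.1 to 370.1 in Reloading. Their part in the Hspg2 values was not tested.

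The small leucine-rich proteoglycans did not move as a block, and decorin and biglycan, the closely related class I members, went opposite ways on reloading. Dcn stood at 225, 241.2, 213.4 and 229.8 CPM in Control, 362.3 and 321.1 in Unloading and 241.8, 257.2 and 228.6 in Reloading. Both Unloading libraries lay above all others, and Reloading overlapped Control. Dcn was 1.50-fold higher in Unloading than in Control (log2 fold change 0.59 ± 0.0769, SE; edgeR adjusted p = 0.000545) and fell by 0.49 ± 0.0817 on the log2 scale from Unloading to Reloading (adjusted p = 0.000277). Against Control, Reloading differed by 0.09 on the log2 scale, with a 95% interval of -0.0546 to 0.241 (adjusted p = 0.297). Without TMM factors, scaling by library totals alone, the Reloading value was 0.33 above Control (adjusted p = 0.00117) and the fall from Unloading was called at a smaller size (log2 fold change -0.25, adjusted p = 0.0278). Pdgfra, the receptor that marks fibro-adipogenic cells, and Gsn, which encodes gelsolin, also rose with unloading, by 0.63 and 0.59 on the log2 scale, and fell by 0.62 and 0.79 with reloading, while Col1a1 and Col3a1, which encode fibrillar collagens, fell by 1.07 and 0.71 with unloading in edgeR but not in DESeq2 and rose by 1.68 and 1.38 with reloading. The 12 fibroblast markers as a whole, of which 2 rose and 2 fell with unloading and 6 rose and 2 fell with reloading (Dcn fell), summed to 1120 to 1560 CPM in Control, 1374 to 1514 in Unloading and 1296 to 1548 in Reloading, and their part in the Dcn values was not tested.

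Biglycan stood at 26.6, 37.0, 23.2 and 23.3 CPM in Control, 25.1 and 26.8 in Unloading and 58.5, 58.7 and 54.8 in Reloading. The 3 Reloading libraries lay close together and far above the rest. Bgn rose 2.21-fold from Unloading (log2 fold change 1.14 ± 0.152, SE; edgeR adjusted p = 4.58e-05) and was 2.09-fold above Control (1.06 ± 0.125, adjusted p = 8.42e-06). Unloading did not separate it from Control, with a log2 fold change of -0.08 ± 0.148 (adjusted p = 0.781) that was 0.10 without Control 2. That library, which held skin transcripts, was the highest Control library for Bgn, as it was for Dcn, Lum, Fmod and Hspg2. Reloading 1, the other library with skin RNA, was the highest Reloading library for Has1, Cd44, Fmod and Hspg2, but not for the other genes of the set. Without Reloading 1, the log2 fold changes of these genes from Unloading to Reloading were 1.74 for Has1, 1.66 for Cd44, 0.65 for Fmod and 0.85 for Hspg2. The part of skin in the values of either library was not tested.

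Within a library, the ratio of Bgn to Dcn in counts per kb of exon does not depend on how libraries are scaled. It was 0.113, 0.147, 0.104 and 0.097 in Control, 0.0663 and 0.08 in Unloading and 0.232, 0.218 and 0.23 in Reloading, so that the 3 groups did not overlap. The mean log2 ratio was 1.64 higher in Reloading than in Unloading (two-sided exact permutation test, p = 0.1, the smallest that 3 against 2 libraries allow) and 0.644 lower in Unloading than in Control (p = 0.0667 in the exact test, the smallest for 2 against 4). It was 0.992 higher in Reloading than in Control (exact p = 0.0286, the smallest for 3 against 4, and 0.15 after adjustment over the 9 ratio tests made). The Has1 to Has2 ratio, 0.165 to 1.69 in Control, was 0.393 to 0.438 in Unloading and 1.56 to 3.86 in Reloading, a log2 difference of 2.63 between Reloading and Unloading (exact p = 0.1, adjusted 0.15). The Fmod to Lum ratio was 3.1 to 3.46 in Control, 2.82 to 2.83 in Unloading and 2.74 to 4.77 in Reloading, where Reloading overlapped both other groups (exact p = 0.4 against Unloading, adjusted 0.45). None of the 9 ratio tests was below 0.05 after adjustment.

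**Figure D2:**
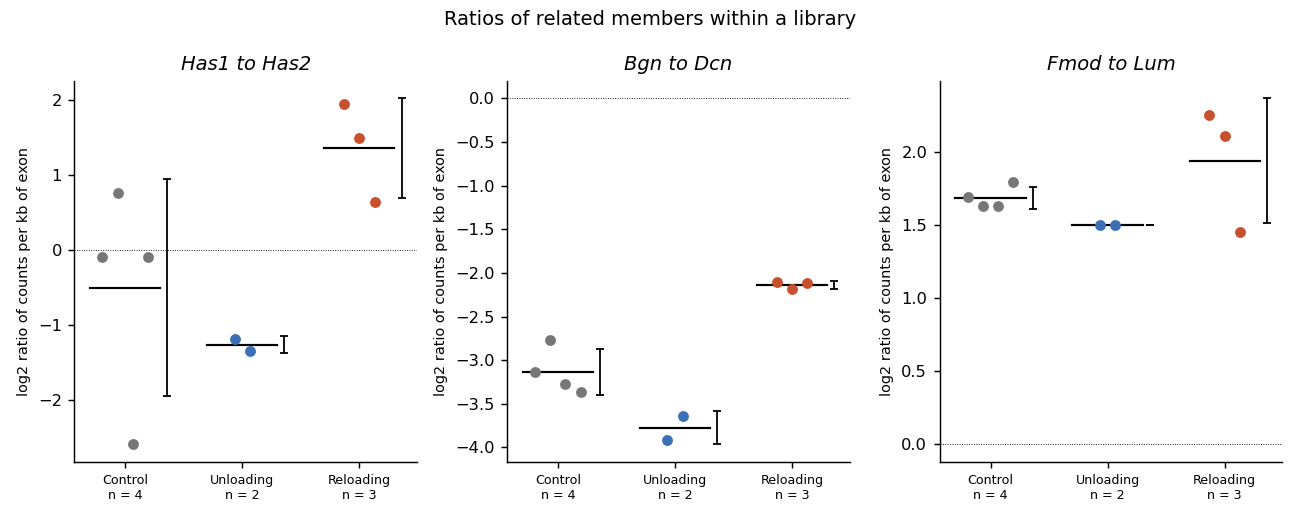
Log2 ratio of counts per kb of exon (y axis) for Has1 to Has2, Bgn to Dcn and Fmod to Lum in each Control (n = 4), Unloading (n = 2) and Reloading (n = 3) library, with the mean as a line and the SD as a bar. In the Bgn to Dcn panel the groups form 3 separate bands, lowest in Unloading and highest in Reloading, and in the other panels Control or Reloading spreads over a neighboring group.

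Fibromodulin and lumican are class II members that bind collagen fibrils, and their log2 fold changes against Control were smaller than that of Bgn, a difference that was not tested. Fmod stood at 48.7, 66.4, 45.5 and 55.5 CPM in Control, 45.0 and 53.0 in Unloading and 103.5, 89.8 and 64.6 in Reloading. The lowest Reloading library was below the highest Control library. Fmod rose 1.75-fold from Unloading (log2 fold change 0.80 ± 0.174, SE; edgeR adjusted p = 0.00213) and was 1.59-fold above Control (0.67 ± 0.143, adjusted p = 0.00153). Lum stood at 11.2, 15.8, 10.9 and 11.8 CPM in Control, 11.8 and 13.9 in Unloading and 16.0, 15.3 and 17.4 in Reloading. Reloading overlapped Control because of Control 2 alone. Lum was 1.31-fold above Control (log2 fold change 0.39 ± 0.128, SE; edgeR adjusted p = 0.0235) and was not called against Unloading (0.34 ± 0.15, adjusted p = 0.0901). Both calls of Lum turned with single libraries, since the call against Control was lost without Control 1, Control 3, Control 4 or Reloading 3 (adjusted p of 0.0581, 0.0744, 0.054 and 0.0854) and in DESeq2 (adjusted p = 0.053), and the difference from Unloading was called without Control 2 (adjusted p = 0.0344).

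Lubricin had the largest change of the set against Control. Prg4 stood at 6.20, 6.88, 6.07 and 15.6 CPM in Control, 19.3 and 33.0 in Unloading and 37.7, 39.3 and 55.8 in Reloading. The groups did not overlap, although Control 4 lay far above the other Control libraries and the 2 Unloading libraries differed widely. Prg4 was 3.03-fold higher in Unloading than in Control (log2 fold change 1.60 ± 0.297, SE; edgeR adjusted p = 0.00462) and 5.09-fold higher in Reloading than in Control (2.35 ± 0.266, adjusted p = 5.78e-06). From Unloading to Reloading the log2 fold change was 0.75 ± 0.288, with a 95% interval of 0.135 to 1.36, and was not called (adjusted p = 0.0529). Its call depended on the setting. Of 19 alternatives, 11 passed, among them library totals (1.00, adjusted p = 0.0106) and a fit of the groups compared alone (0.74, adjusted p = 0.00784), while DESeq2 (adjusted p = 0.323) and the robust fit (adjusted p = 0.226) did not. With a replicate block by description numbers it was 0.24 (adjusted p = 0.303). Without Unloading 2 the difference between Unloading and Control was 1.15 (adjusted p = 0.0694) and that between Reloading and Unloading was 1.19 (adjusted p = 0.031). Without Unloading 1 they were 1.92 (adjusted p = 0.0125) and 0.42 (adjusted p = 0.387), and without Control 4 the first was 2.05 (adjusted p = 0.00032).

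The exons of Prg4 overlap those of Tpr, a nuclear pore gene on the opposite strand with 17987 counts in all beside 3121 for Prg4, and the counting ignored strand. Tpr was higher in Unloading than in Control by 0.40 ± 0.0964 on the log2 scale (edgeR adjusted p = 0.019) and fell by 0.39 ± 0.102 with reloading (adjusted p = 0.00812), and between Reloading and Control it differed by 0.01 (adjusted p = 0.936). Of 11 tendon and joint markers, 2 rose and 1 fell with unloading and 8 rose and 1 fell with reloading. Their summed level was 112.7 to 151 CPM in Control, 105 to 116.1 in Unloading and 254.6 to 379 in Reloading, and their part in the Prg4 and Fmod values was not tested.

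**Figure D3:**
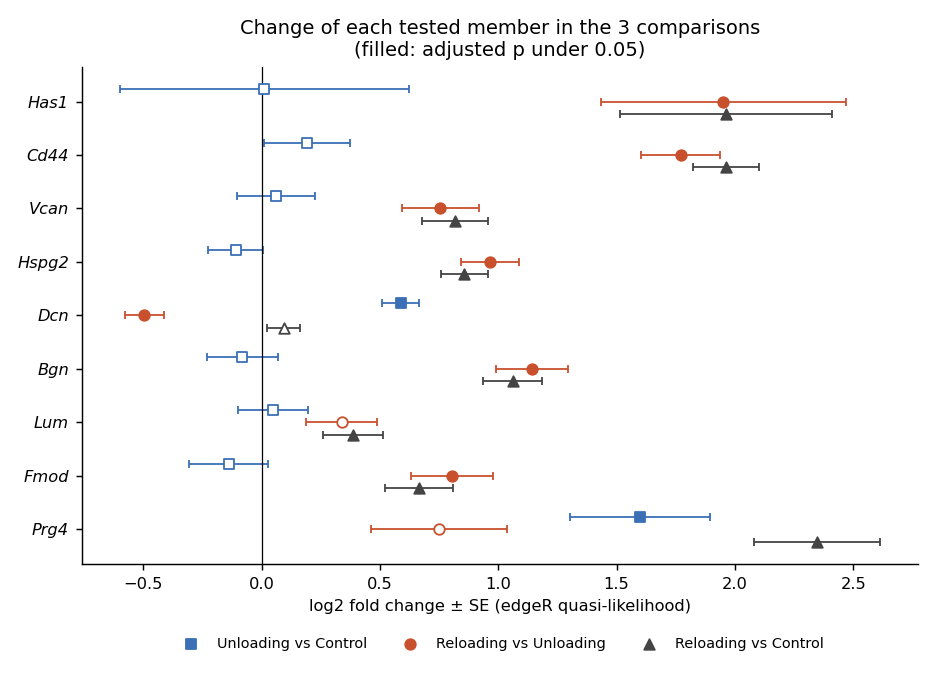
Log2 fold change with its SE (x axis) of the 9 tested genes in the 3 comparisons, from edgeR's quasi-likelihood fit over all 9 libraries; filled symbols have an adjusted p under 0.05. Dcn is the only gene with a filled symbol left of 0, at -0.49 for Reloading against Unloading, and Prg4 and Dcn are the only genes called between Unloading and Control.

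Per length, decorin was the most abundant of the 10 transcripts in every group. In Control, its level was 38.94 ± 1.968 (SD, n = 4) FPKM (CPM per kb of exon), ahead of Fmod at 16.34 ± 2.794, Hspg2 at 9.321 ± 1.212, Lum at 5.075 ± 0.9433 and Bgn at 4.508 ± 1.069. Lum and Bgn overlapped. Prg4 followed at 2.031 ± 1.081, Cd44 at 0.4926 ± 0.06403 and Vcan at 0.2695 ± 0.03209, with Has2 and Has1 last and overlapping. In Unloading, Dcn reached 58.53 ± 4.987 FPKM (SD, n = 2), and Prg4 moved up to the fourth place at 6.111 ± 2.262, overlapping Lum at 5.235 ± 0.6142. In Reloading, Dcn was at 41.54 ± 2.447 FPKM (SD, n = 3), Fmod at 25.99 ± 5.968 and Hspg2 at 16.91 ± 2.299, these last overlapping. Bgn, at 9.4 ± 0.3545, now stood above Lum, at 6.643 ± 0.4335, and Has1, at 0.251 ± 0.07272, above Has2, at 0.09028 ± 0.01721, in both cases without overlap.

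Over the 9 libraries, Cd44 followed Vcan and Bgn closely, with Pearson r of 0.959 and 0.942 between log2 CPM. For Dcn, r with the 8 others ranged from -0.256 to 0.325. The libraries of a group share their treatment, so these values describe the group pattern. For each tested gene, the 2 most alike over the 9 libraries were taken from 9865 other genes with a mean log2 CPM of at least 2. For 4 of the 9 tested genes these included a gene of the pathway. The share of pathway genes among the 9865 was not counted. Vcan was nearest to Adamts9, a versican-cleaving protease (r = 0.9827), Bgn to Sdc2, the membrane proteoglycan syndecan (r = 0.9835), and Hspg2 to Cspg4, the proteoglycan of pericytes (r = 0.9924). Genes outside the pathway lists followed almost as closely, Kpna2 for Vcan (r = 0.9818), Rrp9 for Bgn (r = 0.9834) and Acsl1 for Hspg2 (r = 0.9924). Chad, which encodes the leucine-rich matrix protein chondroadherin, was the second nearest to Fmod (r = 0.9699). The nearest to Dcn was Ptbp2, a splicing regulator (r = 0.9682), followed by Egfr, a growth factor receptor (r = 0.9536). The nearest to Cd44 was Sf3b3 (r = 0.9952), to Has1 Tram2 (r = 0.9727), to Lum Rmc1 (r = 0.9593), to Fmod Itpr3 (r = 0.9713) and to Prg4 Bag5 (r = 0.9714).

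Around these genes, 120 further symbols in 5 lists covered the rest of the pathway. Among genes that make, bind, remove or organize hyaluronan, 9 of 18 tested rose and 2 fell from Unloading to Reloading, with a median log2 fold change of 0.53. Of all tested genes, edgeR called 18.5% higher and 19% lower. DESeq2 called 7 of the 18 higher and 2 lower. Acan, which encodes aggrecan, the large cartilage proteoglycan that binds hyaluronan, had 0, 1, 0 and 1 counts in Control, 1 and 0 in Unloading and 11, 13 and 14 in Reloading. Its ratio of Reloading to Unloading was 29.1, with a 95% counting interval of 4.92 to 1180 (edgeR adjusted p = 0.00051). Itih4, listed only as a member of the Itih family, had 2, 0, 2 and 1 counts in Control and 1 and 1 in Unloading. In Reloading it had 13, 15 and 12, a ratio to Unloading of 15.3 with an interval of 3.97 to 131 (edgeR adjusted p = 0.000656). These intervals cover counting error only. Acan and Itih4 passed the filter on low counts through the Reloading libraries alone. They were thus tested only because of the group in which they are high, and both are among the 9 genes counted as higher. Gfpt2, an enzyme of hexosamine supply, fell by 0.76 on the log2 scale (10.22 to 6.007 CPM), and Stab2, a scavenger receptor for hyaluronan, fell by 0.52 (15.89 to 11.18 CPM). Scaled by library totals alone, Stab2 fell by 0.27 and was not called (adjusted p = 0.159). Between Unloading and Control the edgeR test called 0 of the 18, with 3 higher and 3 lower at an unadjusted p under 0.05 and 0 called by DESeq2. Between Reloading and Control 10 rose and 1, Stab2, fell by 0.67. Of all tested genes, edgeR called 22.1% higher and 21.3% lower here, and DESeq2 called 7 of the 18 higher and 1 lower.

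The other leucine-rich proteoglycans and related proteins were called about as often as genes at large. Of 10 tested, 2 rose from Unloading to Reloading, Kera (3.563 to 5.847 CPM, log2 fold change 0.68) and Chad (5.372 to 7.952 CPM, 0.56), and 2 fell, Ecm2 (16.61 to 13.11 CPM, by 0.34) and Ogn (30.97 to 25.9 CPM, by 0.26), beside 18.5% higher and 19% lower among all tested genes. Keratocan (Kera) and osteoglycin (Ogn) are small proteoglycans of dense connective tissue. Between Unloading and Control, 1 of the 10 passed, Ecm2, higher by 0.48. Between Reloading and Control 4 of the 10 rose, led by Prelp (0.55) and Podn (0.48), and none fell. Among all tested genes 22.1% were higher and 21.3% lower. Scaled by library totals alone, 4 of the 10 rose and none fell from Unloading to Reloading, where Ecm2 and Ogn had log2 fold changes of -0.09 and -0.01. DESeq2 called 0 of the 10 between Reloading and Unloading.

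Of 15 tested heparan sulfate and other proteoglycans, 6 rose and 1 fell from Unloading to Reloading, with a median of 0.41. Of all tested genes, edgeR called 18.5% higher and 19% lower. DESeq2 called 5 of the 15 higher and 0 lower. Cspg4 rose by 1.37 on the log2 scale (6.5 to 16.86 CPM) and Col18a1, a basement membrane collagen with heparan sulfate chains, by 1.09 (5.554 to 11.99 CPM), and Spock2, a testican, fell by 0.61 (6.758 to 4.383 CPM), or by 0.36 and without a call (adjusted p = 0.13) when scaled by library totals. With unloading, Tgfbr3, which encodes betaglycan, rose by 0.63 and Srgn, which encodes serglycin of blood-derived cells, fell by 0.59. These were the 2 genes of the 15 that passed, beside 4.4% higher and 5.5% lower among all tested genes. Against Control, 6 of the 15 rose in Reloading and 1, Gpc1, a glypican, fell by 0.20. Among all tested genes 22.1% were higher and 21.3% lower. Scaled by library totals, Gpc1 was 0.04 above Control on the log2 scale (edgeR adjusted p = 0.644).

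Enzymes and transporters that build and sulfate the sugar chains formed the longest list. Of 40 tested, 11 rose and 2 fell from Unloading to Reloading, with a median of 0.09. Of all tested genes, 37.5% were called, 18.5% higher and 19% lower. The list was called about as often in total, but a smaller share of it was lower. Chst3, a chondroitin sulfotransferase, rose by 1.45 on the log2 scale (0.7466 to 2.087 CPM) and Hs3st1, a heparan sulfotransferase, by 1.22 (0.5625 to 1.344 CPM). Xylt1, which starts the chains, rose by 0.49 with unloading (8.363 to 11.7 CPM) and fell by 0.57 with reloading (11.7 to 7.862 CPM). Csgalnact2, a chondroitin chain enzyme, fell by 0.34 with reloading, and Fam20b, a kinase of the chain's linkage xylose, fell by 0.40 with unloading and was lower by 0.49 in Reloading than in Control. Against Control, 13 of the 40 rose in Reloading, Pxylp1 by 0.93 and Chst3 by 0.86 in the lead, and 1 fell. Among all tested genes 22.1% were higher and 21.3% lower. With library totals, 22 rose and 0 fell from Unloading to Reloading, where Xylt1 and Csgalnact2 had log2 fold changes of -0.32 (adjusted p = 0.0659) and -0.09 (adjusted p = 0.461).

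Among the 7 ADAMTS proteases that cleave proteoglycans, 4 rose from Unloading to Reloading and none fell, with a median of 1.02. Of all tested genes, edgeR called 18.5% higher and 19% lower. DESeq2 called 3 of the 7 higher and 0 lower. Adamts9 rose by 1.84 ± 0.206 on the log2 scale (3.686 to 12.94 CPM; edgeR adjusted p = 9.86e-06). Adamts4, an aggrecanase, had 2, 2, 1 and 0 counts in Control, 1 and 4 in Unloading and 16, 11 and 3 in Reloading (edgeR adjusted p = 0.0463 against Unloading). Its lowest Reloading library lay within the range of the Unloading counts. Adamts4 passed the filter on low counts through Reloading libraries alone, so it was tested only because of the group in which it is high. With unloading, Adamts1 fell by 0.71 (50.85 to 30.85 CPM), the only call of the 7. Against Control 5 of the 7 rose in Reloading, Adamts4 by 2.67 and Adamts9 by 1.86 in the lead, beside 22.1% of all tested genes.

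**Figure D4:**
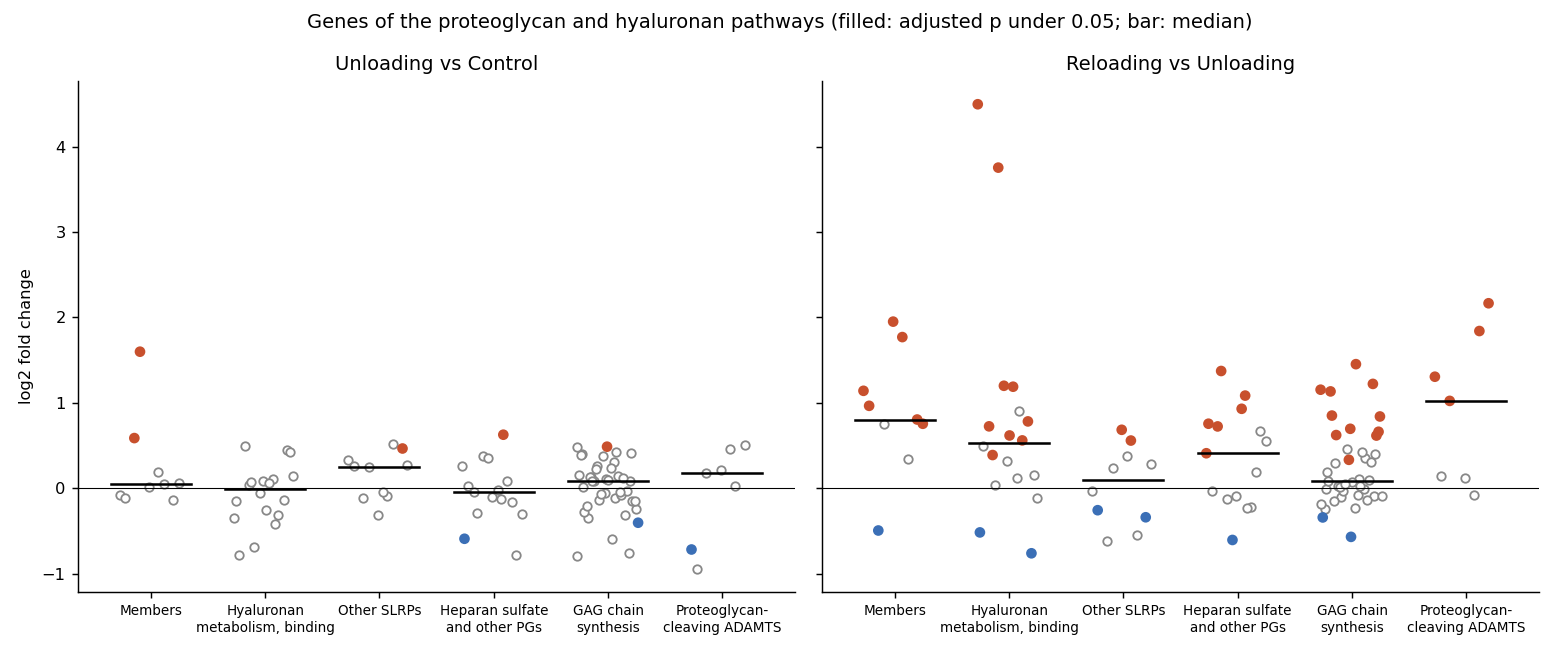
Log2 fold change (y axis) of each tested gene of the 10 described here and of the 5 pathway lists, for Unloading against Control (left) and Reloading against Unloading (right); 1 circle per gene, filled at an adjusted p under 0.05, with the list's median as a bar. Few circles are filled on the left, and on the right the medians run from 0.09 for chain synthesis to 1.02 for the ADAMTS proteases.

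Markers of the remaining cell types were read in the same way. Of 7 smooth muscle markers, 5 rose and 1 fell from Unloading to Reloading, with summed levels of 323.1 to 361.7 CPM in Control, 378.2 to 419.9 in Unloading and 396.6 to 423.3 in Reloading. Of 5 tested satellite cell markers 2 rose, with sums of 27.4 to 38.8, 26.34 to 27.7 and 43.25 to 47.95 CPM. Of 8 muscle fiber markers none rose and 5 fell, with sums of 136900 to 150400, 134800 to 141800 and 96600 to 108700 CPM. The 6 neutrophil markers summed to at most 5.752 CPM in any library, 0 of the 2 tested passed in edgeR or DESeq2 or at an unadjusted p under 0.05, and Ly6g was at 0 in both Unloading libraries. The 12 skin markers summed to 5.93 to 328.6 CPM in Control, 7.212 to 8.608 in Unloading and 5.762 to 148 in Reloading, with Krt1, Krt2 and Krt14 at 0 in both Unloading libraries, and 0 of the 10 tested passed in edgeR or DESeq2 in any comparison, with 5 lower in Unloading than in Control at an unadjusted p under 0.05. The part of these cell types in the values of the proteoglycan and hyaluronan genes was not tested.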

How the data were processed

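Per the labels, total RNA of mouse gastrocnemius was extracted with Trizol, poly-A enriched and made into Illumina TruSeq libraries. Per the submitters' processing notes and the file headers, the authors aligned reads with STAR 2.7.3a to GRCm38.p6, and featureCounts 2.0.3 counted pairs in the exons of Ensembl release 102 genes without regard to strand. The deposited table holds raw counts, with no filter or normalization, and exon lengths. The labels name paired-end reads and the study's methods single reads. In the authors' DESeq2 tables, the mean signal per gene, the log2 fold changes with their errors, and the p-values and adjusted p-values were deposited for the 3 comparisons. Only gene symbols were taken from them.

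The test on the counts was that of edgeR 4.0.16 under R 4.3.3 (filterByExpr at 10 counts and 15 in total, scaling by TMM, the trimmed mean of M-values, quasi-likelihood F-test, two-sided, Benjamini-Hochberg adjustment over all 14851 tested genes, threshold 0.05). All 9 libraries entered 1 fit with the group as its term, so the 2 Unloading libraries shared the estimate of the spread (biological coefficient of variation 0.0927). SEs were derived from the F statistic. CPM were scaled by TMM and FPKM are CPM per kb of summed exon length. Ratios within a library used counts plus 0.5 per kb of exon. DESeq2 1.42.0, other scalings, filters, fits and left-out libraries were alternatives. The procedure was tested on simulated data.

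The genes and lists were chosen with earlier results of these data known. Named genes are all 10 genes, the 2 nearest genes by Pearson r of log2 CPM (prior count 2) of which 1 or both are printed, and, per pathway list and comparison, the 2 higher and 2 lower with the largest log2 fold change among those called. Marker genes are named beside the result they move with. Of 212 symbols in the lists 211 were matched, and the other, Tmem2, is an older name of Cemip2, which is in the list.

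Replicates differed by more than counting noise (chi-square per degree of freedom 3.43 to 8.4 between libraries of a group), so none was counted as a repeat. The labels name no batches, and p-values measure the spread between these libraries only. Replicate numbers in the titles and in the descriptions differ for Reloading. Deviations from the group means of libraries with the same title number correlated at -0.201 to 0.0752, so no pairing by these numbers was seen. With so few libraries per group, this check cannot exclude a pairing or a shared batch. With the description numbers, the 3 Control and Reloading pairs correlated at 0.361, 0.143 and 0.155, above the limit of 0.1 set for pairing. The pair at 0.361 is Control 2 and Reloading 1, the libraries with skin RNA. The pairs with an Unloading library correlated at 0.0544, 0.0752 and 0.0172, under the limit. The fit with this block is given in the closing section.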

Additional observations from a re-analysis of the deposited data

Results flagged for a closer look

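Prg4 was at 15.61 CPM in Control 4, while Control 1, 2 and 3 lay between 6.07 and 6.88. Its gap to the nearest of these was 0.915 of the whole range of the group, which is beyond Dixon's 95% critical value for 4 libraries. Of 13 groups checked in this way it was the 1 that stood out, and chance does so in about 1 group in 20.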

How the results depend on the processing

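Over 19 alternatives, 5 to 8 of the proteoglycan and hyaluronan genes were called higher and 1 lower between Reloading and Unloading, 1 to 2 higher between Unloading and Control, and 7 to 9 higher between Reloading and Control. Between Unloading and Control 1 gene rather than 2 was higher with the robust fit and without Unloading 2, since Prg4 lost its call. The Bgn to Dcn ratio between Reloading and Control was 0.915 to 1.11 when 1 library was left out and 1.1 without Control 2 and Reloading 1 (exact p = 0.1), where so few libraries cannot pass the threshold. Uncalled differences between Unloading and Control changed sign: with 1 library left out, Has1 ranged from -0.368 to 0.285, Vcan from -0.0325 to 0.167, Lum from -0.0832 to 0.19 and Bgn from -0.16 to 0.0996, the last without Control 2, and Bgn was 0.101 without Control 2 and Reloading 1. Has2 could be tested with no filter and in DESeq2 only. The cause of these changes was not tested.

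With a replicate block by title numbers, Has1 between Unloading and Control was -0.0029, and by description numbers Has1 was -0.223 and Vcan -0.026. Under the block by description numbers, Prg4 was 0.24 between Reloading and Unloading (adjusted p = 0.303) and 1.98 between Unloading and Control (adjusted p = 1.04e-05). The title block called Prg4 between Reloading and Unloading (0.65, adjusted p = 0.0104). Neither block changed another call of these genes.

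Scaling by library totals moved the median log2 fold change of all genes from 0.03 to 0.27 (Reloading against Unloading) and from 0.01 to 0.25 (Reloading against Control), and the share of calls that were higher from 49.3% to 82.8% and from 50.9% to 80.2%. Lum between Reloading and Unloading was then called (0.59, adjusted p = 0.00552), and it was also called in a fit of the groups compared alone (adjusted p = 0.0419), as was Prg4 in both. Prg4 between Reloading and Unloading was called in 11 of the 19 alternatives. Calls of all genes between Unloading and Control were 1470, but 949 without Control 3 and 121 without Unloading 1. Of the 40 chain synthesis genes, 13 were higher in Reloading than in Control, 25 with library totals and 6 in DESeq2, and of the 10 other leucine-rich genes 4, 7 and 2. At 1 to 18 counts per library, depth limits Has1 and Has2 most.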
